A study of Mus musculus with 6 samples.

Results

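The oviduct and the uterus give a mouse blastocyst different surroundings, and the comparison described here set blastocysts held in ligated oviducts against blastocysts flushed from the normal uterus, gene by gene. All embryos came from CD-1 mice, an outbred strain, whose ovaries were stimulated with 5 IU of pregnant mare serum gonadotropin and, 44 h later, 5 IU of human chorionic gonadotropin before mating. Each array held labelled RNA from 1 pool of 100 to 120 embryos, and there were 2 arrays of embryos from ligated oviducts, 2 from the uterus of mice given 0.5 µg of a compound that the labels call ICI, and 2 from the uterus of normal pregnant mice. The design text puts all embryos at day 3.5, while the labels give day 4 post coitum, with the plug on day 1, both for the ligation and for the collection from the oviducts, so the time spent behind the ligature is unknown here. No sham-operated group was analysed here, and the place of collection, the surgery and the day of collection cannot be told apart. Since the labels do not state whether replicate pools came from different animals, p-values here measure the spread between these samples only, and that spread may be technical.

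The genes described are those measured above background, meaning a detection p-value below 0.05, on both oviduct arrays or on both uterus arrays. This rule kept 17070 of 45281 probes, which stand for 9649 of the 19057 named genes on the array, each represented by its brightest such probe. Of the kept probes, 14732 (86.3%) were above background on all 4 arrays. Values are normalized signals on the log2 scale, on which a difference of 1 unit marks a fold of 2. The lowest signals above background lay between 4.94 and 5.11. Differences are oviduct minus uterus, with their standard error (SE) from limma, and adjusted p-values are Benjamini-Hochberg values of limma's moderated test over all probes above background in any of the 3 groups.

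The oviduct arrays differed from each other more than the uterus arrays did. The median gap between replicate arrays was 0.32 log2 units in the oviduct group and 0.18 in the uterus group, against a median gap between the group means of 0.27. Above background on all 4 arrays were 7 of 8 trophectoderm, 7 of 8 inner cell mass and 5 of 8 primitive endoderm markers. These markers went with the label of blastocyst. Sox7, of primitive endoderm, was above background on neither oviduct array. By the detection rule, which either group can meet, 8 of 8, 8 of 8 and 7 of 8 were above background. Gata4, a primitive endoderm factor, was the one that was not.

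Markers of other cell types were unevenly spread over the arrays. Cumulus and granulosa markers, 6 probes in all, summed on the linear scale to 142 and 1546 on the oviduct arrays, against 145 and 444 on the uterus arrays, and none was above background on both arrays of a group. Inha, an inhibin subunit of granulosa cells, was measured at 4.69 and 10.43 on the oviduct arrays, against 4.64 and 8.17 on the uterus arrays. Stroma and muscle markers (12 probes) summed to 388 and 903 on the oviduct arrays, against 379 and 371 on the uterus arrays, and blood and immune markers (11 probes) to 391 and 2228 on the oviduct arrays, against 1421 and 1339 on the uterus arrays. Oviduct replicate 2 therefore had the highest sum of all 3 kinds, though single probes such as Inha carried much of it. Hba-a1 was measured at 5.79 and 10.73 on the oviduct arrays, against 10.18 and 8.67 on the uterus arrays. Other blood and immune markers went the other way, with S100a8 and S100a9 at 5.29 and 5.09 on oviduct replicate 2, against 8.99 and 7.56 on uterus replicate 2. Oocyte and zona markers (8 probes) summed to 441 and 789 on the oviduct arrays, against 422 and 4753 on the uterus arrays, so uterus replicate 2 stood apart there. Of the oviduct epithelium markers, 4 of 9 were above background on all 4 arrays, among them the ciliary genes Rsph1, Sntn and Tppp3, while Dynlrb2 and Tekt1 were so on oviduct replicate 2 alone and Foxj1 and Dnah5 on none. Of the stroma and muscle markers, 2, Acta2 and Des, were above background on all 4 arrays, Col1a1 and Col3a1 on oviduct replicate 2 alone, and 3, including the smooth muscle gene Myh11, on none. Of the blood and immune markers, 3, Hba-a1, Cd52 and Cd74, were above background on all 4 arrays and 5, including the pan-leukocyte gene Ptprc, on none.

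**Figure D1:**
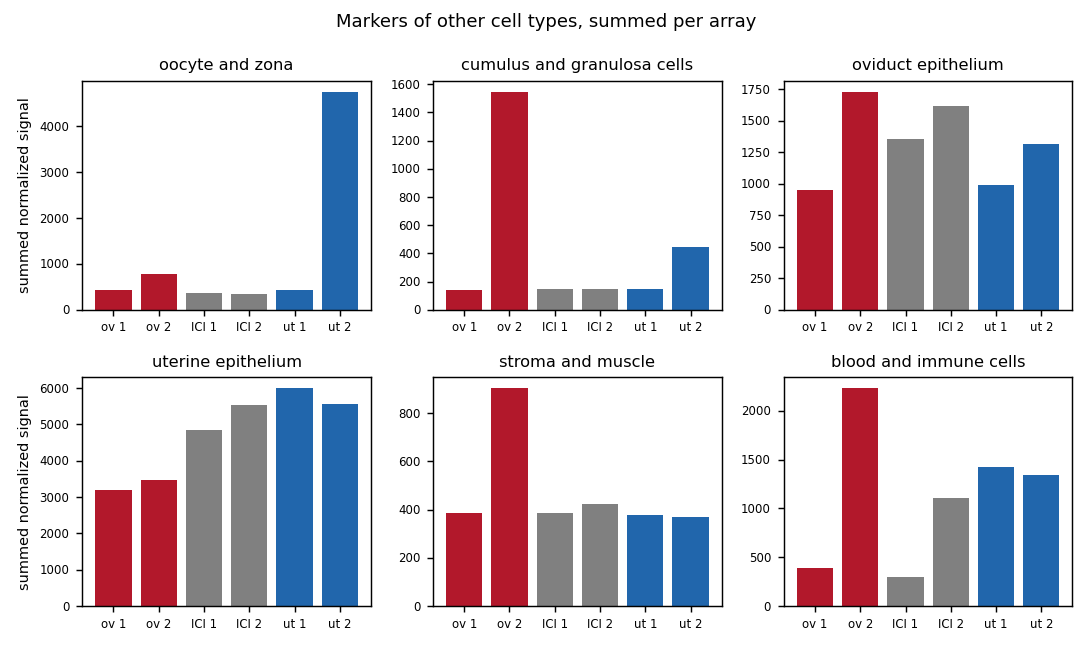
Summed normalized signal (linear scale, y axis) of the marker probes of 6 other cell types on each array, with oviduct arrays (ov) in red, ICI arrays in grey and uterus arrays (ut) in blue. Bars are single arrays, and oviduct replicate 2 stands above the other arrays for cumulus, stroma and blood markers, as uterus replicate 2 does for oocyte markers.

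By the blastocyst stage the mouse embryo has an outer epithelium, the trophectoderm, which pumps fluid into the blastocoel and later attaches to the uterus, and an inner cell mass, which separates into epiblast and primitive endoderm. Embryos normally enter the uterus shortly before the blastocyst forms and implant once ovarian estrogen acts on a progesterone-primed uterus. Txnip and Arrdc4 encode alpha-arrestins that limit glucose uptake, and both are known targets of the glucose-sensing factors Mlxip (MondoA) and Mlxipl (ChREBP), which act with the partner Mlx.

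Because Arrdc4 gave the one increase past the threshold and Txnip stood among the highest differences, the bases before their starts are shown, 250 for each gene, from RefSeq (GRCm38.p6). The window of Txnip is chr3:96557707-96557956 on the plus strand and that of Arrdc4 is chr7:68749239-68749488 on the minus strand. Capitals mark CACGTG, the core of an E-box, in Arrdc4, and a pair of CACGNG motifs 5 bases apart in Txnip.
Txnip: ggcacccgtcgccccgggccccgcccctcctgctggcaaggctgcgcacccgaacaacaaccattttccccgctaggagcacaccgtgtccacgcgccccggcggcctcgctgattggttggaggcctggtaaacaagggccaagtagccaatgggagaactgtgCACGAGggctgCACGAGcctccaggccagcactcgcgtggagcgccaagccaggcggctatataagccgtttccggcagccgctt
Arrdc4: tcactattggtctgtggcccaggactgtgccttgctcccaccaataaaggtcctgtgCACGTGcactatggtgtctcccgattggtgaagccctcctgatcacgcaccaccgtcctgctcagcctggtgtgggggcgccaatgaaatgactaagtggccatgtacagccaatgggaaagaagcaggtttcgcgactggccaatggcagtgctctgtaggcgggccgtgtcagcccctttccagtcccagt
The window of Arrdc4 held 1 CACGTG, 193 bases before the start, and that of Txnip held 0, while 6.02% of 32851 windows of the same length in the RefSeq table held at least 1. A pair of CANNTG motifs 5 bases apart was in neither window and in 0.639% of all windows. A pair of CACGNG motifs 5 bases apart, searched on either strand and overlapping in letters with the first motif, began 85 bases before the start of Txnip and was in 0.0457% of all windows, and Arrdc4 held none. The last motif was added after the other two had found no match in Txnip, and a match of letters is not a binding site.

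Of the members, 1 probe rose (0.00586% of those tested) and 8 probes fell (0.0469%) in oviduct embryos at an adjusted p under 0.05, each for a different gene and with no overlap between the groups. The adjusted p-values ran from 0.029 to 0.0481, close to the threshold, and 3256 probes had an unadjusted p under 0.05. The count depended strongly on the fit. With each array shifted to the same median in place of quantile normalization it was 38, with 19 higher and 19 lower. On the authors' deposited log2 values it was 0. The count fell when any 1 uterus or ICI array was left out and rose when an oviduct array was. Such a fit leaves 1 array in a group and takes its spread from the other groups, so its count is not comparable. The oviduct arrays varied most (root mean square standard deviation 0.44, against 0.24 for uterus and 0.21 for ICI arrays).

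Arrdc4 rose 4.96-fold in oviduct embryos. It was measured at 9.18 and 9.16 on the oviduct arrays, against 6.84 and 6.89 on the uterus arrays, while the ICI arrays gave 6.95 and 6.90. Both oviduct arrays lay well above the other 4, which lay close together, and the difference was 2.31 ± 0.17 (SE; limma adjusted p = 0.029). Before normalization the bead signals were 869 and 620 in the oviduct group, against 160 and 164 in the uterus group.

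Txnip, its relative, was measured at 9.97 and 10.63 on the oviduct arrays, against 7.00 and 8.31 on the uterus arrays, while the ICI arrays gave 7.71 and 7.10. The groups did not overlap, but the uterus arrays were far from each other, and the difference of 2.65 ± 0.46 did not pass the adjusted test (limma adjusted p = 0.083). Both probes of Txnip had the same sign. Among the other genes of this group, Mlxipl was measured at 6.04 and 7.19 on the oviduct arrays, against 5.72 and 5.37 on the uterus arrays (difference 1.07 ± 0.37, adjusted p = 0.204). Mlxip, Mlx and Arrdc1 lay below both uterus arrays, by -0.40, -0.20 and -0.19 log2 units. Arrdc2 and Arrdc5 did not meet the detection rule in either group.

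Msx1, a homeobox factor downstream of bone morphogenetic proteins, fell 10.9-fold in oviduct embryos. Its levels were 4.88 and 5.01 on the oviduct arrays, against 8.43 and 8.35 on the uterus arrays, while the ICI arrays gave 7.92 and 8.77. Only 1 of the oviduct arrays was above background, so the size of the fall is inexact (difference -3.45 ± 0.29, limma adjusted p = 0.0359). Wnt6, a Wnt ligand made by trophectoderm, was above background throughout, at 7.57 and 7.40 on the oviduct arrays, against 9.80 and 9.71 on the uterus arrays, and fell 4.83-fold (difference -2.27 ± 0.22, adjusted p = 0.0427). All 3 probes of Wnt6 had the same sign. Cebpa, a C/EBP transcription factor, was measured at 4.96 and 5.04 on the oviduct arrays, against 7.40 and 7.17 on the uterus arrays, and its oviduct arrays lay at the edge of background (fall of 4.87-fold, adjusted p = 0.0332).

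BC051665, which lies in the family of placental cathepsins, has 2 member probes. The dimmer was the one that passed, at 6.48 and 5.24 on the oviduct arrays, against 11.06 and 10.76 on the uterus arrays, a difference of -5.05 ± 0.46 (limma adjusted p = 0.0376). The brighter probe, at 7.14 and 5.61 on the oviduct arrays and far below both uterus arrays, missed the threshold narrowly (difference -4.76 ± 0.52, adjusted p = 0.0559). On both probes oviduct replicate 2 was lower than oviduct replicate 1, and neither came near the uterus arrays. Of the other placental cathepsins, Ctsr was above background at 5.30 and 4.96 on the oviduct arrays, against 5.87 and 5.40 on the uterus arrays (difference -0.51 ± 0.28, adjusted p = 0.386) and 9 did not meet the detection rule. The probes of this family may take up transcripts of related genes, which was not tested.

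Prap1, a secreted protein of the uterine epithelium, was above background on both arrays of a group only in the normal uterus. It was measured at 4.52 and 4.66 on the oviduct arrays, against 10.19 and 8.76 on the uterus arrays, while the ICI arrays gave 4.56 and 5.08. The oviduct arrays were at background, so the fall is given as at least 23.1-fold (limma adjusted p = 0.0376), a bound that sets the uterus mean against the lowest signal above background on each oviduct array. Prap1 had been listed as 1 of 10 markers of uterine epithelium. Over all 10 probes the signals summed to 3186 and 3461 on the oviduct arrays, against 5993 and 5565 on the uterus arrays. Of these markers, 5 were above background, and Wfdc2 was the brightest. Among them Wfdc2 was measured at 11.46 and 11.49 on the oviduct arrays, against 12.09 and 12.19 on the uterus arrays, Muc1 at 6.54 and 4.97 on the oviduct arrays, against 7.02 and 7.26 on the uterus arrays, and Ltf, an estrogen-responsive lactoferrin, at 6.69 and 8.46 on the oviduct arrays, against 7.32 and 6.46 on the uterus arrays. Sprr2f, Calb1, Spink1, Clca1 and Cfb were not above background in either group. Whether signal from maternal epithelium takes part in the level of Prap1 was not tested.

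The 3 remaining genes fell from modest levels. Arl14, a small GTPase of the Arf-like family, was at background on both oviduct arrays and above it in the uterus (4.61 and 4.51 on the oviduct arrays, against 6.52 and 6.59 on the uterus arrays), a fall of at least 3.06-fold (adjusted p = 0.0376). Gpr20, an orphan G protein-coupled receptor, was measured at 5.34 and 4.99 on the oviduct arrays, against 7.47 and 7.16 on the uterus arrays (difference -2.15 ± 0.21, adjusted p = 0.0481). Gm4926, a predicted gene, was measured at 5.25 and 4.99 on the oviduct arrays, against 8.02 and 7.94 on the uterus arrays (difference -2.86 ± 0.20, adjusted p = 0.029), and it was higher still on the ICI arrays, at 8.91 and 9.19. As the groups did not overlap in any of the 9 genes, leaving out single arrays could hardly change the sign of a difference. The differences then ranged from 2.26 to 2.35 for Arrdc4, -2.32 to -2.21 for Wnt6 and -5.62 to -4.19 for Prap1.

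**Figure D2:**
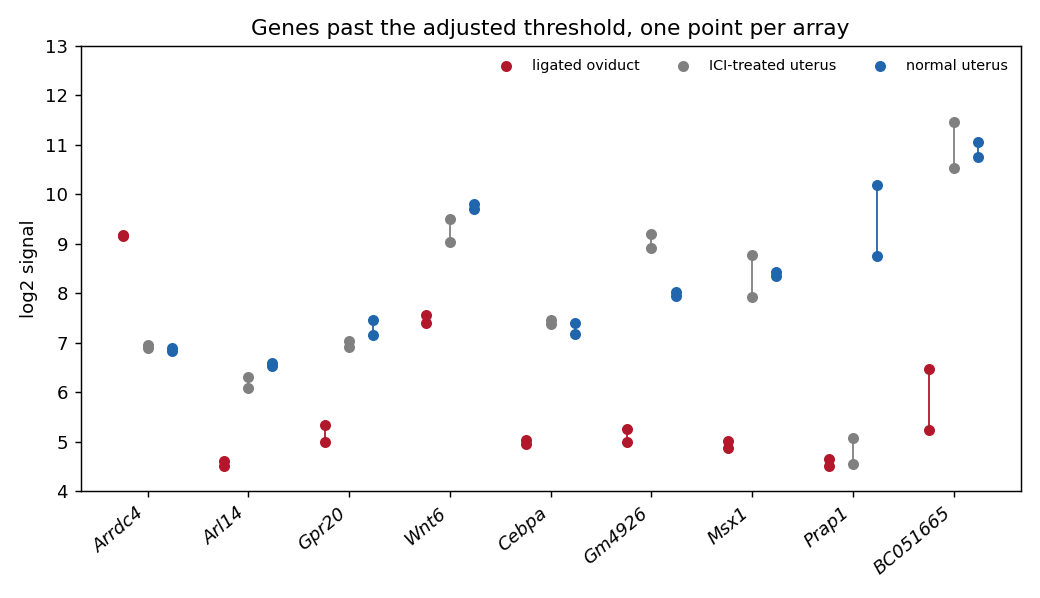
Normalized log2 signal (y axis) of the 9 genes past the adjusted threshold, with 1 point per array, a line joining the arrays of a group, and groups in the order ligated oviduct, ICI-treated uterus and normal uterus. BC051665 is drawn at the probe that passed. The oviduct points lie above the uterus points for Arrdc4 and below them for the other 8 genes, and only for Prap1 do the ICI points lie with the oviduct points.

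Beyond these, 7 genes, Txnip among them, made up the rest of the highest differences among genes above background on all 4 arrays whose groups did not overlap and whose unadjusted p was under 0.05. None passed the adjusted test. Lyz1, a lysozyme, was measured at 8.78 and 10.48 on the oviduct arrays, against 6.65 and 6.14 on the uterus arrays (difference 3.24 ± 0.91, adjusted p = 0.149), with 4.84 and 7.61 on the ICI arrays, which spanned the uterus values. Acer2, an alkaline ceramidase, was measured at 7.99 and 8.87 on the oviduct arrays, against 6.58 and 6.27 on the uterus arrays, and Tnfsf13b, a cytokine also called BAFF, at 7.47 and 8.02 on the oviduct arrays, against 5.88 and 5.73 on the uterus arrays, with an adjusted p of 0.0735 and 0.0561. Dhrs7, Fcgrt and Zscan5b had differences of 1.85, 1.83 and 1.77 log2 units. Fcgrt, the neonatal Fc receptor, was measured at 8.43 and 9.80 on the oviduct arrays, against 7.50 and 7.07 on the uterus arrays. On each of these genes oviduct replicate 2 was the higher of the pair. It was also the array with the higher summed signal of blood and stroma markers. The part of that signal in these differences was not tested.

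The lowest differences included 2 glutathione transferases. Gsta1 was measured at 5.96 and 5.94 on the oviduct arrays, against 8.69 and 8.58 on the uterus arrays (difference -2.69 ± 0.30, adjusted p = 0.0559) and Gsta2 at 5.47 and 5.22 on the oviduct arrays, against 7.66 and 7.80 on the uterus arrays (difference -2.38 ± 0.31, adjusted p = 0.0596). Both were low on both oviduct arrays, and their sequences are alike, so the probes may not separate them. Slc7a3, a cationic amino acid transporter, was measured at 7.78 and 6.12 on the oviduct arrays, against 9.94 and 10.04 on the uterus arrays, and Ndrg1, a gene known to respond to hypoxia and differentiation, at 10.02 and 8.27 on the oviduct arrays, against 11.67 and 11.48 on the uterus arrays. For both, oviduct replicate 2 was much the lower of the pair. Cdx1, Pip5k1b, Foxq1 and Rassf4 had differences of -2.36, -2.34, -2.34 and -2.32, with adjusted p-values from 0.067 to 0.117.

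**Figure D3:**
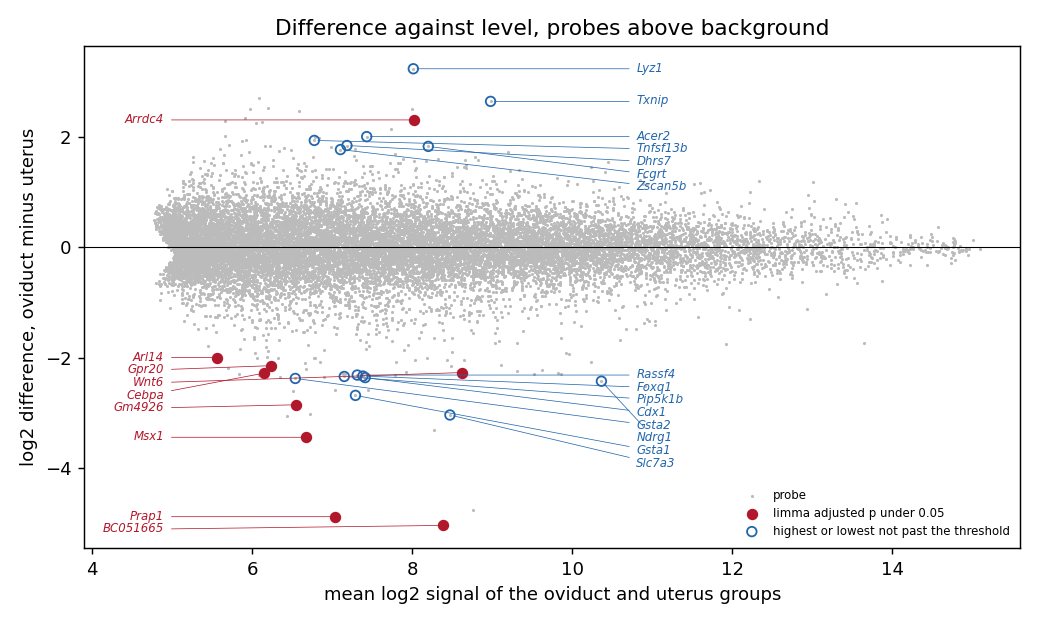
Log2 difference, oviduct minus uterus (y axis), against the mean log2 signal of both groups (x axis) for every member probe. Filled red points are the 9 probes with a limma adjusted p under 0.05, and open blue circles are the genes of highest and lowest difference that did not pass; Arrdc4 is the red point above 0.

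Trophectoderm genes lay lower in oviduct embryos as a group. Of 30 listed genes, 24 were above background, 22 of them were lower in the oviduct mean, and 1, Wnt6, fell in the adjusted test. Both oviduct arrays lay below both uterus arrays for 21 of 24, against 26.4% of all genes, and above both for 0, against 24.4%. An unadjusted p under 0.05 was reached by 16 genes in the lower direction, against 10.5% of all genes, and by 0 in the higher, against 9.47%. The median difference was -0.75, against -0.01 over all genes, and the oviduct arrays taken singly gave -0.55 (replicate 1) and -0.92 (replicate 2).

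Among its transcription factors, Cdx2, which specifies trophectoderm, was measured at 12.08 and 12.16 on the oviduct arrays, against 13.23 and 12.81 on the uterus arrays. The groups did not overlap, and the difference of -0.90 ± 0.21 did not pass the adjusted test (limma adjusted p = 0.124). Gata3 differed by less, at 11.70 and 11.50 on the oviduct arrays, against 12.02 and 11.98 on the uterus arrays (difference -0.40 ± 0.19, adjusted p = 0.311). Gata2, Elf5 and Ets2 had differences of -1.93, -2.09 and -1.07 log2 units, with Elf5 above background on 1 of 2 oviduct arrays. Eomes and Tfap2a had differences of -1.23 and -1.16, while Tead4, which acts upstream of Cdx2, had -0.37 and Tfap2c had 0.04. Among the epithelial keratins, Krt7 was at 6.98 and 6.24 on the oviduct arrays, against 7.83 and 7.36 on the uterus arrays, whereas Krt8 had a difference of -0.11 and Krt18 of -0.63. In pooled embryos, fewer trophectoderm cells and less RNA of these genes per cell cannot be told apart.

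Inner cell mass genes showed no common direction. Of 24 listed genes, 21 were above background, 10 higher and 11 lower in the oviduct mean, with 6 above both uterus arrays (28.6%, against 24.4% of all genes) and 7 below both (33.3%, against 26.4%), and a median of -0.05. Nanog, a core pluripotency factor, was measured at 11.64 and 11.49 on the oviduct arrays, against 10.72 and 10.78 on the uterus arrays, and both oviduct arrays were higher (difference 0.81 ± 0.17, adjusted p = 0.109). Otx2, an epiblast factor, was also higher on both, at 8.55 and 8.80 on the oviduct arrays, against 7.18 and 6.98 on the uterus arrays (difference 1.59 ± 0.19, adjusted p = 0.0561). Pou5f1 was measured at 10.28 and 12.20 on the oviduct arrays, against 11.50 and 11.40 on the uterus arrays, so that the oviduct arrays lay on either side of the uterus arrays, and Sox2 at 6.47 and 7.30 on the oviduct arrays, against 6.92 and 6.79 on the uterus arrays, likewise overlapping.

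Genes of Nodal signalling on that list, grouped here after their values were seen, differed in size and sign. Lefty2, a secreted inhibitor of Nodal, was measured at 5.03 and 4.79 on the oviduct arrays, against 7.69 and 8.25 on the uterus arrays, above background on 1 of 2 oviduct arrays (difference -3.06 ± 0.46, adjusted p = 0.0735). Lefty1 was at background on both oviduct arrays, with 4.72 and 4.87 on the oviduct arrays, against 5.94 and 6.15 on the uterus arrays, at least 2.14-fold lower (adjusted p = 0.176). Nodal itself had a difference of -1.26 (adjusted p = 0.113). The Nodal-related ligand Gdf3 was measured at 10.08 and 9.55 on the oviduct arrays, against 10.35 and 10.25 on the uterus arrays (difference -0.49 ± 0.22, adjusted p = 0.3), and the Nodal co-receptor Tdgf1 at 8.13 and 7.72 on the oviduct arrays, against 7.61 and 7.89 on the uterus arrays, where the groups overlapped (difference 0.18 ± 0.22, adjusted p = 0.702). None of these 5 genes passed the adjusted test.

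Primitive endoderm genes differed in direction. Of 21, 15 were above background, 2 above both uterus arrays (13.3%, against 24.4% of all genes) and 6 below both (40%, against 26.4%), with a median of -0.15. Gata6, an early factor, was measured at 12.09 and 12.01 on the oviduct arrays, against 11.52 and 11.41 on the uterus arrays, higher on both oviduct arrays (difference 0.59 ± 0.17, adjusted p = 0.163). Sox17, a later factor, was measured at 6.51 and 4.93 on the oviduct arrays, against 7.98 and 8.18 on the uterus arrays (difference -2.36 ± 0.48, adjusted p = 0.101), and Lama1, a laminin chain of the basement membrane, at 8.29 and 7.79 on the oviduct arrays, against 10.01 and 10.33 on the uterus arrays (difference -2.13 ± 0.41, adjusted p = 0.0875). Sox7 and Lamc1 had differences of -1.14 and -0.97, and Pdgfra one of -0.92 with oviduct replicate 1 above, and replicate 2 below, both uterus arrays. None passed the adjusted test.

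Of 50 genes of Wnt, Bmp and Fgf signalling, 28 were above background and 2 of these, Msx1 and Wnt6, fell. Among them 14 lay below both uterus arrays (50%, against 26.4% of all genes) and 4 above both (14.3%, against 24.4%). The median was -0.49 (-0.22 on oviduct replicate 1 and -0.70 on replicate 2). Of the 28, 21 were above background on all 4 arrays. The rest entered through 1 group, which may bear on these shares. Relative to all genes the median ran from -0.66 to -0.10 over the 10 other settings. Bmp4, the main blastocyst Bmp ligand, was measured at 9.98 and 8.09 on the oviduct arrays, against 10.77 and 10.59 on the uterus arrays (difference -1.65 ± 0.54, adjusted p = 0.191). Wnt7b, Fgfr1, Dusp6 and Spry4 had differences of -0.74, -0.86, -0.79 and -0.70. In the other direction, the receptor Fzd3 was measured at 6.86 and 6.58 on the oviduct arrays, against 5.62 and 5.76 on the uterus arrays (difference 1.03 ± 0.22, adjusted p = 0.109).

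Of 31 ligands and receptors of implantation, 15 were above background, 12 of them on all 4 arrays. Of the 15, 1 lay above both uterus arrays (6.67%, against 24.4% of all genes) and 9 below both (60%, against 26.4%). The median was -0.74, and relative to all genes it ran from -0.80 to -0.26 over the 10 other settings. Wnt6 alone passed the adjusted test. Lif, the leukemia inhibitory factor, was measured at 5.44 and 4.67 on the oviduct arrays, against 7.33 and 6.79 on the uterus arrays, above background on 1 of 2 oviduct arrays (difference -2.01 ± 0.32, adjusted p = 0.078). Igf2, an imprinted growth factor, was measured at 8.67 and 7.78 on the oviduct arrays, against 9.93 and 9.93 on the uterus arrays (difference -1.70 ± 0.33, adjusted p = 0.0883). Hbegf, the EGF-family ligand known from attachment of the blastocyst, had a difference of -0.83 and Erbb2 one of -0.97. Csf2ra, a subunit of the receptor for the oviduct and uterine cytokine GM-CSF, lay in the other direction, at 0.98.

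No gene of the epithelial machinery of the trophectoderm passed the adjusted test. Of 26 junction genes, 19 were above background, with 3 above both uterus arrays (15.8%, against 24.4% of all genes) and 6 below both (31.6%, against 26.4%) and a median of -0.29. The claudin Cldn3 was measured at 7.57 and 6.77 on the oviduct arrays, against 9.41 and 8.96 on the uterus arrays, with no overlap (adjusted p = 0.0709). Cldn4, another claudin, had a difference of -0.84 ± 0.22 (adjusted p = 0.14). Tjp3, a scaffold of tight junctions, had a difference of -1.06 ± 0.19 (adjusted p = 0.085), while Cdh1 and Ctnna1, core adherens junction genes, had -0.05 and 0.03. Of 16 pump and aquaporin genes, 9 were above background, 7 of them on all 4 arrays. Of the 9, 1 lay above both uterus arrays (11.1%, against 24.4% of all genes) and 6 below both (66.7%, against 26.4%). The median was -0.53, and relative to all genes it ran from -0.66 to -0.03 over the 10 other settings. Aqp8, a water channel, was measured at 7.64 and 5.96 on the oviduct arrays, against 9.16 and 8.95 on the uterus arrays (difference -2.25 ± 0.51, adjusted p = 0.114), and Atp1b1, the sodium pump subunit of trophectoderm, had a difference of -0.68, as against -0.53 for the anion exchanger Slc4a2 and 0.32 for Aqp3. Of 25 integrin, laminin and collagen IV genes, 18 were above background, with 4 above both uterus arrays (22.2%, against 24.4% of all genes) and 7 below both (38.9%, against 26.4%), a median of -0.12, and differences of -0.96 for Lamb2 and -1.06 for Fn1.

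**Figure D4:**
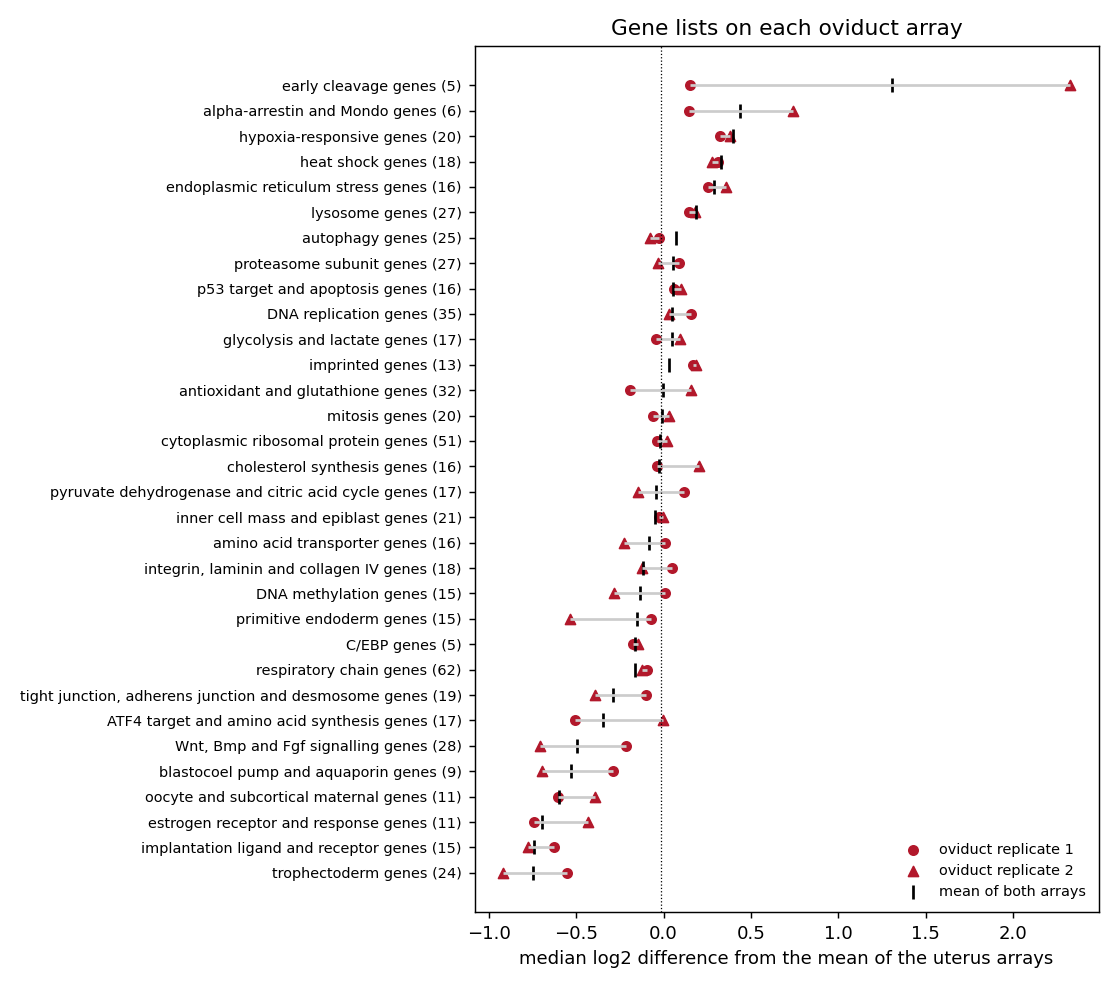
Median log2 difference from the mean of the uterus arrays (x axis) of the members of each gene list above background (their number in brackets), on oviduct replicate 1 (circles), on replicate 2 (triangles) and for the group mean (bars). The dotted line is the median of all genes. Trophectoderm and implantation lists lie to its left on both arrays, and hypoxia, heat shock and endoplasmic reticulum stress lists to its right on both.

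Of 24 genes that respond to low oxygen, 20 were above background, with 12 above both uterus arrays (60%, against 24.4% of all genes) and 5 below both (25%, against 26.4%) and a median of 0.40. Ldha, lactate dehydrogenase A, was measured at 9.23 and 9.61 on the oviduct arrays, against 7.81 and 8.04 on the uterus arrays, higher on both oviduct arrays (difference 1.50 ± 0.22, adjusted p = 0.067). Egln3 and Higd1a had differences of 1.17 and 0.53, while Vegfa, P4ha2 and Egln1, targets or regulators of the same response, had -0.78, -0.76 and -0.66. Ndrg1, the lowest member, had -2.43. Against the ICI arrays the list median was -0.07. In oviduct minus uterus, limma's unadjusted p was under 0.05 for 5 of the 20 genes in the higher direction, against 9.47% of all genes. In the lower direction it was so for 4 of the 20, against 10.5%. None passed the adjusted test. Of 23 genes of glucose transport, glycolysis and lactate, 17 were above background with a median of 0.05, and 4 lay above both uterus arrays (23.5%, near the 24.4% of all genes), among them Pdk1, which restrains pyruvate oxidation, at 5.97 and 5.96 on the oviduct arrays, against 5.56 and 5.33 on the uterus arrays. Slc2a1, a glucose transporter, was measured at 10.08 and 9.71 on the oviduct arrays, against 9.37 and 9.72 on the uterus arrays, so that the groups overlapped. The transporter Slc2a3 was brighter, at 12.88 and 12.71 on the oviduct arrays, against 12.79 and 12.70 on the uterus arrays, and overlapped likewise.

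Of 22 heat shock genes, 18 were above background, 14 of them higher in the oviduct mean, with 8 above both uterus arrays (44.4%, against 24.4% of all genes) and 1 below both (5.56%, against 26.4%) and a median of 0.33. Hspa2 was measured at 8.32 and 8.33 on the oviduct arrays, against 7.44 and 7.33 on the uterus arrays (difference 0.94 ± 0.17, adjusted p = 0.0874). The chaperones Hsp90aa1 and Hspb8 had differences of 0.72 and 0.73, while Hspa8, the constitutive member, had 0.01. Of 20 genes of endoplasmic reticulum stress, 16 were above background, 13 higher, with 9 above both uterus arrays (56.2%, against 24.4% of all genes) and 1 below both (6.25%, against 26.4%) and a median of 0.29. The co-chaperone Dnajb9 was measured at 9.02 and 9.75 on the oviduct arrays, against 7.72 and 8.19 on the uterus arrays (difference 1.43 ± 0.29, adjusted p = 0.101). Hspa5 (BiP) and Creld2 had differences of 0.65 and 0.64, and Ddit3 (CHOP) one of -0.09. None of these genes passed the adjusted test.

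Of 35 lysosome genes, 27 were above background, with 10 above both uterus arrays (37%, against 24.4% of all genes) and 6 below both (22.2%, against 26.4%) and a median of 0.19. The protease Ctsz was measured at 9.24 and 8.83 on the oviduct arrays, against 7.87 and 7.64 on the uterus arrays (difference 1.28 ± 0.21, adjusted p = 0.078), and Ctsb at 11.16 and 11.85 on the oviduct arrays, against 10.25 and 10.46 on the uterus arrays. Both lay above both uterus arrays, and the adjusted p of Ctsb was 0.126. Lipa, the acid lipase, was above background in the oviduct group alone, and close to it, at 5.15 and 5.79. It was at least 1.31-fold higher there (adjusted p = 0.115). No lysosome gene passed the adjusted test. The hydrolases Hexa and Glb1 lay below both uterus arrays, by -0.72 and -0.57. Of 28 autophagy genes, 25 were above background with a median of 0.07, and single genes differed in sign, with 0.81 for Atg3, -0.98 for Atg13 and -0.69 for Ulk1.

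Genes of amino acid supply were mixed. Of 20 genes of amino acid synthesis and ATF4 targets, 17 were above background with a median of -0.35, which was -0.51 on oviduct replicate 1 and -0.00 on replicate 2. Psat1, of serine synthesis, was measured at 12.19 and 12.10 on the oviduct arrays, against 11.20 and 11.08 on the uterus arrays (difference 1.01 ± 0.19, adjusted p = 0.0874), and Cbs and Aldh18a1 had differences of -1.20 and -1.48. Of 24 amino acid transporter genes, 16 were above background with a median of -0.08, and beside Slc7a3 the transporters Slc7a7 and Slc36a1 had -1.13 and -0.64. Of 39 antioxidant and glutathione genes, 32 were above background with a median of -0.00, and Gstk1, Gsta4 and Mgst3 had -1.42, -1.05 and -0.92.

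Core metabolic and housekeeping lists lay close to the median of all genes. The median was -0.16 for 62 of 71 respiratory chain genes, -0.02 for 51 of 79 cytoplasmic ribosomal protein genes, 0.06 for 27 of 31 proteasome genes and -0.04 for 17 of 20 genes of the citric acid cycle. Of the respiratory chain genes, 26 lay below both uterus arrays (41.9%, against 26.4% of all genes) and 3 above both (4.84%, against 24.4%), and none passed the adjusted test; Uqcrc1 and Cyc1 of complex III had differences of -0.52 and -0.69, and Cox6c of complex IV one of 0.64. The largest difference among proteasome genes named was 0.73 for Psmd6, and among ribosomal genes 0.63 for Rpl22. Replication, mitosis and p53 lists had medians of 0.05 (35 of 38 genes), -0.01 (20 of 25) and 0.05 (16 of 22). The p53 targets Trp53inp1 and Ccng1 were higher by 0.79 and 0.69 and Apaf1 lower at -0.61, none past the adjusted test. Of 24 cholesterol synthesis genes, 16 were above background with a median of -0.03, and Srebf2, the regulator of the pathway, was measured at 8.24 and 8.31 on the oviduct arrays, against 9.69 and 9.30 on the uterus arrays (difference -1.22 ± 0.20, adjusted p = 0.078).

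The estrogen receptors Esr1 and Esr2 and the membrane receptor Gper1 did not meet the detection rule in either group. Of 26 genes of estrogen action, 11 were above background, with 2 above both uterus arrays (18.2%, against 24.4% of all genes) and 6 below both (54.5%, against 26.4%) and a median of -0.69. Ccnd1, cyclin D1, was measured at 5.82 and 6.14 on the oviduct arrays, against 8.46 and 8.05 on the uterus arrays, lower on both oviduct arrays (difference -2.28 ± 0.30, adjusted p = 0.0596), and Myc and Pdzk1 had differences of -0.69 and -1.34. The list holds Txnip, at its upper end. With every probe kept, whether above background or not, its median relative to all genes turned to 0.11. Of 7 C/EBP genes, 5 were above background, among them, beside Cebpa, Cebpb at 8.19 and 8.68 on the oviduct arrays, against 7.63 and 8.09 on the uterus arrays and Cebpd at 7.77 and 7.64 on the oviduct arrays, against 7.83 and 7.97 on the uterus arrays, and the list median was -0.16.

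Of 24 oocyte and subcortical maternal genes, 11 were above background with a median of -0.60, which turned to 0.34 without uterus replicate 2. Gdf9, an oocyte growth factor, was measured at 7.17 and 7.71 on the oviduct arrays, against 7.07 and 11.12 on the uterus arrays, and Bmp15 at 5.61 and 6.36 on the oviduct arrays, against 5.28 and 8.51 on the uterus arrays, so that uterus replicate 2 alone was high. Dppa3 and Ooep, maternal genes also present in blastocysts, had differences of 0.41 and -0.39. Of 19 early cleavage genes, 5 were above background, with a median of 0.15 on oviduct replicate 1 and 2.33 on replicate 2. Tcstv1 was measured at 4.96 and 8.70 on the oviduct arrays, against 4.75 and 5.07 on the uterus arrays, Tdpoz4 at 5.14 and 8.26 on the oviduct arrays, against 4.99 and 5.08 on the uterus arrays and Obox6 at 6.19 and 8.23 on the oviduct arrays, against 5.92 and 5.89 on the uterus arrays. Oviduct replicate 2 was the one high array for each of the 3 genes.

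Of 26 imprinted genes, 13 were above background with a median of 0.03. Igf2 was its lowest member, and its highest, Dcn, is also a stroma gene. Dlk1 was above background in the oviduct group alone, at 5.07 and 5.60 on the oviduct arrays, against 4.62 and 4.48 on the uterus arrays. Of 20 DNA methylation genes, 15 were above background with a median of -0.13, and Dnmt3l, the cofactor of de novo methylation, was measured at 12.00 and 12.15 on the oviduct arrays, against 12.81 and 12.86 on the uterus arrays (difference -0.76 ± 0.19, adjusted p = 0.129). Mbd3 and Mbd2 had differences of opposite sign, -0.91 and 0.79.

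Detection itself differed between the groups. Over all probes, 18081 and 18182 were above background on the oviduct arrays, against 16525 and 17038 on the uterus arrays. Of 9649 genes, 318 were above background on both oviduct arrays and on neither uterus array, and 88 the other way round. Of the 318, 170 were above background on neither ICI array and 50 on both, and of the 88 these counts were 30 and 33. At a detection p-value under 0.01 in the group with signal, the counts were 85 in the oviduct group and 21 in the uterus group. Most were dim: the bound on the fold exceeded 2 for 11 of the oviduct genes and 7 of the uterus genes, and all 11 were brighter on oviduct replicate 2.

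Of the 6 oviduct-only genes of highest bound, so named against the normal uterus alone, 3 (Ovgp1, Dcn and Lyz2) are on the marker lists of other cell types. Ovgp1, the oviduct-specific glycoprotein, was measured at 6.52 and 8.35 on the oviduct arrays, against 4.79 and 4.68 on the uterus arrays, at least 5.13-fold higher (adjusted p = 0.0923). It was above background on both ICI arrays as well, at 5.28 and 5.43. Dcn, a stromal proteoglycan, was measured at 6.14 and 8.32 on the oviduct arrays, against 4.70 and 4.75 on the uterus arrays, and Lyz2, a lysozyme of macrophages, at 5.87 and 7.75 on the oviduct arrays, against 4.61 and 4.42 on the uterus arrays. Both were higher on replicate 2 than on replicate 1. Igfbp7 and Cemip were at 5.08 and 9.27 and at 4.98 and 9.19 on the oviduct arrays, so that replicate 1 lay at the edge of background, and Emp1 was at 5.96 and 7.38. The bounds were 4.45, 4.29, 4.03, 3.33 and 3.02-fold for Dcn, Igfbp7, Cemip, Lyz2 and Emp1, and none passed the adjusted test. A bound is on the group mean, and for Igfbp7 and Cemip it rests on replicate 2. Igfbp7 was at 5.10 and 4.76 on the uterus arrays, so its groups overlapped. Of 10 oviduct epithelium markers, 5 were above background with a median of 0.13. All 9 probes of that list summed to 951 and 1729 on the oviduct arrays, against 987 and 1318 on the uterus arrays. Tuba1a, the brightest of them, was measured at 9.23 and 10.02 on the oviduct arrays, against 9.38 and 9.98 on the uterus arrays. The ciliary genes Rsph1 and Sntn had differences of 0.26 and -0.35. The part of maternal cells in these values was not tested.

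The uterus-only genes of highest bound, after Prap1 and Arl14, were Flrt3, Aldh3b2, Dact2 and Lefty1. Flrt3, a membrane protein of cell adhesion and Fgf signalling, was measured at 4.77 and 4.44 on the oviduct arrays, against 6.61 and 6.97 on the uterus arrays, at least 3.59-fold lower in oviduct embryos (adjusted p = 0.134). Aldh3b2 was measured at 4.88 and 4.50 on the oviduct arrays, against 6.25 and 6.07 on the uterus arrays and Dact2, a regulator of Wnt and Nodal signalling, at 4.63 and 4.54 on the oviduct arrays, against 6.36 and 5.76 on the uterus arrays.

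**Figure D5:**
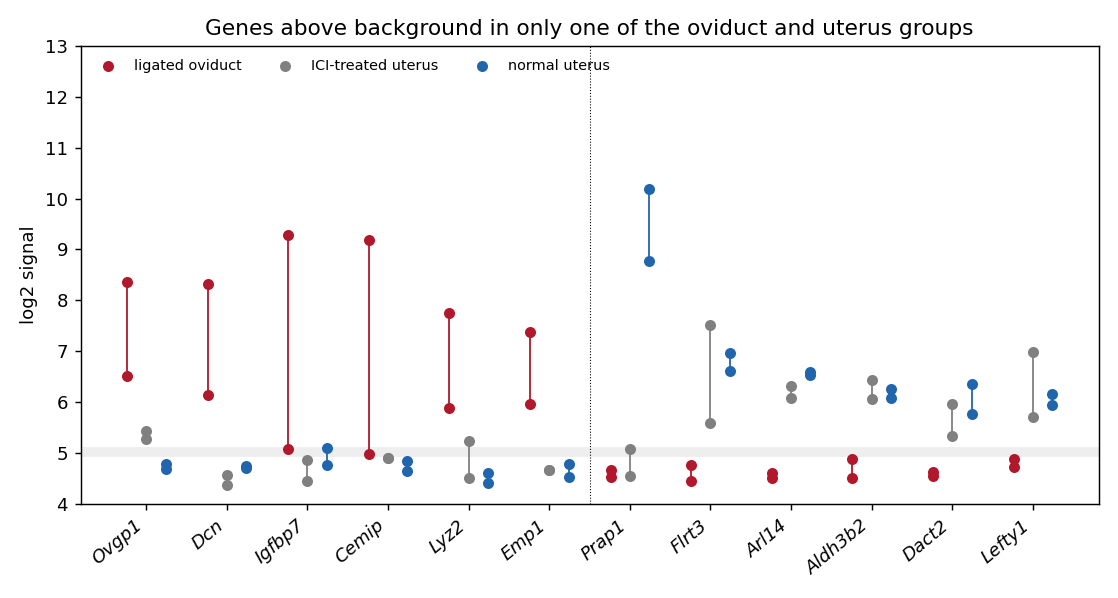
Normalized log2 signal (y axis) on each array of the 6 genes of highest bound that were above background only in the oviduct group (left of the dotted line) and only in the uterus group (right of it), with a line joining the arrays of a group. The grey band is the range over arrays of the lowest signal above background, and the oviduct points of Igfbp7 and Cemip reach from that band to above 9.

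The oviduct arrays also differed from each other in genes that were chosen here after their values were seen. Globin transcripts were high on oviduct replicate 2 and low on replicate 1, with Hbb-bt at 5.04 and 10.63 on the oviduct arrays, against 9.77 and 8.23 on the uterus arrays. Egr1, an immediate early gene, was measured at 6.69 and 10.94 on the oviduct arrays, against 6.37 and 6.95 on the uterus arrays. In the other direction Gpnmb was at 8.53 and 6.07 on the oviduct arrays, against 6.27 and 6.34 on the uterus arrays, and Fgf10 at 8.69 and 6.74 on the oviduct arrays, against 8.95 and 8.95 on the uterus arrays, with replicate 2 the lower. Over 4-fold differences from the uterus mean were seen for 70 higher and 73 lower genes on oviduct replicate 2, for 5 and 23 on replicate 1, and for 3 higher and 12 lower on both. The 3 were Arrdc4, Lyz1 and Txnip. The 12 were BC051665, Ccnd1, Cebpa, Flrt3, Gm4926, Gsta1, Gsta2, Lefty2, Msx1, Prap1, Slc7a3 and Wnt6.

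Set against the ICI arrays instead, which share the oviduct arrays and so give no independent evidence, 21 member probes rose (0.123%) and 38 fell (0.223%) in oviduct embryos. This count too fell when any 1 uterus or ICI array was left out and rose when an oviduct array was, with the same limit on such fits. Prap1 did not pass here, with 4.52 and 4.66 on the oviduct arrays, against 4.56 and 5.08 on the ICI arrays. Oviduct minus ICI was 2.25 for Arrdc4, -3.40 for Msx1, -1.78 for Wnt6 and -0.23 for Prap1 (adjusted p = 0.0232, 0.0328, 0.0411 and 0.796). The brighter probe of BC051665 and Tnfsf13b, Gsta1, Gsta2 and Ctsz passed against the ICI arrays and not against the uterus arrays, with adjusted p-values of 0.0361, 0.0361, 0.0361, 0.0361 and 0.0489. Whether the oviduct embryos differed more from one uterus group than from the other was not tested.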

How the data were processed

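Expression was measured on 6 Illumina mouse BeadArrays, 2 per group, of which the oviduct and uterus arrays are compared here and the ICI arrays enter the fit. Per the file headers, the authors deposited each probe's intensity, a mean over beads, together with a detection p-value, a bead count and the standard error of that mean. A second table that the authors deposited holds log2 values, and no source used here says how they were made. They equal log2 signal less an array constant near the upper quartile and less a probe constant that is unknown, and their medians were -0.11 and -0.07 on the oviduct arrays, against 0.08 and 0.02 on the uterus arrays. Labelling used linear amplification, per the labels' protocols.

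The function neqc (limma 3.58.1, R 4.3.3) removed background estimated from the detection p-values, added an offset of 16, applied quantile normalization and took log2. Between 16525 and 18182 probes per array were above background, and precision is limited by the number of arrays, while the standard error over beads was a median of 3.63 to 3.92% of the signal. The platform annotation names 34885 probes by 1 symbol and 18 by several, leaves 10378 unnamed, and 2422 member probes are therefore unnamed. Of 48 named genes with more than 1 member probe, the probes of 1 (Psmd8) disagreed in sign.

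All 6 arrays were fitted with 3 group means (lmFit, eBayes; 3.77 prior and 3 residual degrees of freedom), and two-sided tests were adjusted over the 17677 probes that any of the groups had above background on both its arrays. Where a group was above background on neither array, a fold is a bound, from the mean of the bright group and, per array of the dim group, the higher of the lowest signal above background and the probe's own. Genes named are those past the threshold, the 8 highest and 8 lowest differences with non-overlapping arrays and unadjusted p under 0.05, the 3 of smallest p in each of 42 lists, the 6 highest bounds in each direction, and 10 lineage and estrogen receptor genes. The members and lists were chosen with earlier results of these data known. The groups share replicate numbers, but no label pairs the arrays. The fit was tested on simulated data, and alternatives were other normalizations, filters, fits and leaving out each array. Figures were drawn with matplotlib 3.10.9.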

Additional observations from a re-analysis of the deposited data

How the results depend on the processing

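The count of probes past the threshold, 9 (oviduct minus uterus), was 38 with median scaling (19 higher, against 1 of 9), 12 at a detection p-value under 0.01, 12 when adjusted over the probes of the 2 groups alone, 1 without a detection filter, and 0 on the authors' values, with the 4 oviduct and uterus arrays alone, or with array weights (0.40 for the oviduct arrays, against 1.30 for the uterus arrays). Leaving out single arrays gave 0 to 1615. At 0 calls, between 1501 and 3412 probes had an unadjusted p under 0.05. The count for oviduct minus ICI, 59, was 56 with median scaling (66.1% higher, against 35.6%), 84 at a detection p-value under 0.01, 20 on the authors' values, 4 without a detection filter, 11 with array weights, and 0 to 2748 without single arrays. Where 1 array is left in a group, it is assumed to vary like the other groups. The cause of these shifts was not tested.

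With replicate number as a block the counts were 0 (oviduct minus uterus) and 5 (oviduct minus ICI); deviations of same-numbered arrays correlated at 0.23 and 0.0657, and with 2 numbers and no label the block is no pairing by design.

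Genes above background in 1 group only numbered 85 in place of 318 (oviduct) and 21 in place of 88 (uterus) at a detection p-value under 0.01. Median scaling moved the median of all genes from -0.01 to 0.22. Of 8 alternatives that left out no single array, Arrdc4 stayed past the threshold in 4. Gm4926, Cebpa, Msx1, Arl14, Prap1, Wnt6 and Gpr20 did so in 3 each, and the brighter probe of BC051665 passed in 1. Among all alternative values of named genes, 8 changed sign. With median scaling Cebpd turned to 0.083 and Pou5f1 to 0.0060. Without single arrays the difference ran from -3.66 to 0.373 for Gdf9, -2.51 to 0.709 for Bmp15, -0.0615 to 0.570 for Rsph1, -1.17 to 0.757 for Pou5f1 and -0.400 to 0.437 for Sox2. List medians relative to that of all genes kept their sign in all 10 settings for the trophectoderm, implantation, Wnt, junction, pump, heat shock, endoplasmic reticulum stress, hypoxia and lysosome lists. Lists nearer to that median, such as the respiratory chain, replication, p53, amino acid transporter and imprinted lists, did so too. A kept sign therefore does not set a list apart.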
